A study of Mus musculus with 10 samples.

Results

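Oxidative phosphorylation genes were followed across 4 vector groups of one mouse cell line. Members were taken by symbol: those starting Nduf, Uqcr, Cox4 to Cox8 or Atp5, the 4 succinate dehydrogenase genes Sdha to Sdhd, and the protein genes of the mitochondrial genome. Of 55866 genes in the deposited table, 127 matched. Symbols marked -ps (15 genes) and genes under 1 CPM (the usual count scaled to library size) in every library (14 genes) were left out, which gave 98 members, 88 nuclear and 10 mitochondrially encoded. The highest level just outside that limit was 0.739 CPM (mt-Atp8), and the lowest just inside was 3.22 CPM (Cox7a1). All 98 passed the expression filter. Complex I had 38 nuclear subunits, 8 assembly factors and 5 mitochondrially encoded subunits. Complex II had 4 members, complex III 8 nuclear and 1 mitochondrial, complex IV 13 and 3, and complex V 17 and 1. Classes follow the symbols: Ndufa4, a complex IV protein, is counted in complex I, and Cox7a2l, which helps assemble supercomplexes, in complex IV.

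The cells, named iKCs in the labels, were sorted for viability and for mOrange, a fluorescent protein, and polyadenylated RNA was sequenced in bulk. A vector overexpressing miR-342-3p was used in 3 libraries, and a vector with a mutated form of the same microRNA served as its control in 2. A sponge for miR-342-3p, a transcript carrying binding sites for it, was used in 3 libraries, and a scramble sponge was its control in 2. All 4 groups carried a vector, and all came from the same line. The libraries are called biological replicates in the labels, which do not say how cultures were kept apart. The p-values therefore measure only how these libraries spread, which may be technical. The macrophage genes Csf1r (1779 to 2334 CPM) and Adgre1 (418 to 486 CPM) were high in every library. The Kupffer cell genes Clec4f and Timd4 had 0 counts in all 10, and Vsig4 had at most 4 counts. Other genes of the same marker list were present. Spic had 9.6 to 14.4 CPM, Id3 3.5 to 6.4, Marco 2.6 to 4.3, Cd5l 1.4 to 2.8, Nr1h3 1.7 to 2.6 and C1qa 851 to 1319 CPM. Of 20 macrophage and Kupffer cell markers, 17 reached 1 CPM, and their summed level ranged from 8462 to 9778 CPM. The hepatocyte genes Ttr, Serpina1a and Cyp2e1 were at 0 in all libraries and Alb had at most 1 count. Trf, another listed hepatocyte marker, had 335 to 468 CPM. Fewer cells and less RNA per cell cannot be told apart in bulk samples.

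Oxidative phosphorylation makes ATP in the inner mitochondrial membrane. Complexes I and II pass electrons from NADH and succinate to coenzyme Q, complex III passes them to cytochrome c, and complex IV passes them to oxygen. Complexes I, III and IV pump protons, and complex V, the ATP synthase, uses the returning protons to turn its rotor and form ATP in the F1 head. Most subunits are nuclear genes, a small set is encoded in the mitochondrial genome, and complex II is nuclear only. In macrophages the use of this pathway shifts with activation.

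The libraries held 25713110 to 59260772 counts. Overexpression replicate 1, the deepest, and sponge replicate 3 stood apart from the others of their groups, so medians of the complexes are given with and without them. Counts of non-overlapping groups, medians by seed match and the values of other gene lists are given with all libraries only. The counts of sponge replicate 3 and of scramble replicate 1 stand in 1 joined field of the deposited table and were separated by likelihood. Reads over the Mir342 hairpin were 8.22 to 11.3 CPM with overexpression, 2.86 and 3.22 CPM in the mutated control and 0 in the other 5 libraries.

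Levels within each complex spanned a wide range. On the scale of counts scaled to library size and per kilobase of exon (RPKM, with the exonic length given in the deposited table), the nuclear members of complex I ran from 0.789 (Ndufb2) to 132 (Ndufa2), both supernumerary subunits. Those of complex II ran from 41.1 for Sdhc, a membrane anchor, to 94.6 for Sdhd, the other anchor. In complex III the range was 29.4 for the core protein Uqcrc1 to 118 for the small subunit Uqcr10. In complex IV it was 4.73 for Cox7a1 to 242 for Cox8a. In complex V it was 6.85 for Atp5l to 206 for Atp5a1, the alpha subunit of F1. The exonic length joins all annotated exons of a gene, so a gene with long rarely used exons is listed too low on this scale.

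Many members came as tissue isoform pairs, and the ubiquitous form was the abundant one. Cox4i1 had a mean of 191 RPKM, and Cox4i2, an isoform known from lung, had 0.060 RPKM. Cox8a stood at 242 RPKM against 0.013 for Cox8b, a heart and muscle form. Cox6b1 had 173 RPKM and Cox6b2, known from testis, 0.089. Ndufa4 had 33.0 RPKM and Ndufa4l2, known as a hypoxia-induced gene, 0.103. Among forms known from heart and skeletal muscle, 2 stood above 1 CPM: Cox6a2 had 16.3 RPKM beside 231 for Cox6a1, and Cox7a1 had 4.73 beside 79.0 for Cox7a2 and 77.3 for Cox7a2l, which helps assemble supercomplexes. The 3 genes of the rotor ring, whose mature proteins are alike, stood at 71.5 (Atp5g3), 49.4 (Atp5g2) and 11.4 (Atp5g1) RPKM.

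The nuclear members moved together from library to library more than from group to group. Each gene's log2 level was set against its own mean over the 10 libraries, and the median deviation was taken over the 88 nuclear members. It was 0.26, 0.050 and -0.088 in overexpression replicates 1, 2 and 3, and -0.075 and -0.054 in the mutated control. It was -0.065, -0.080 and 0.17 in the sponge libraries, and 0.049 and -0.10 in the scramble control. Overexpression replicate 1 had 86 of 88 nuclear members above their mean and was the highest library for 67 of them. Sponge replicate 3 had 87 of 88 above their mean and was the highest for 14. Group means of this median spanned 0.139, and the SD within groups was 0.137 (6 residual degrees of freedom).

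**Figure D1:**
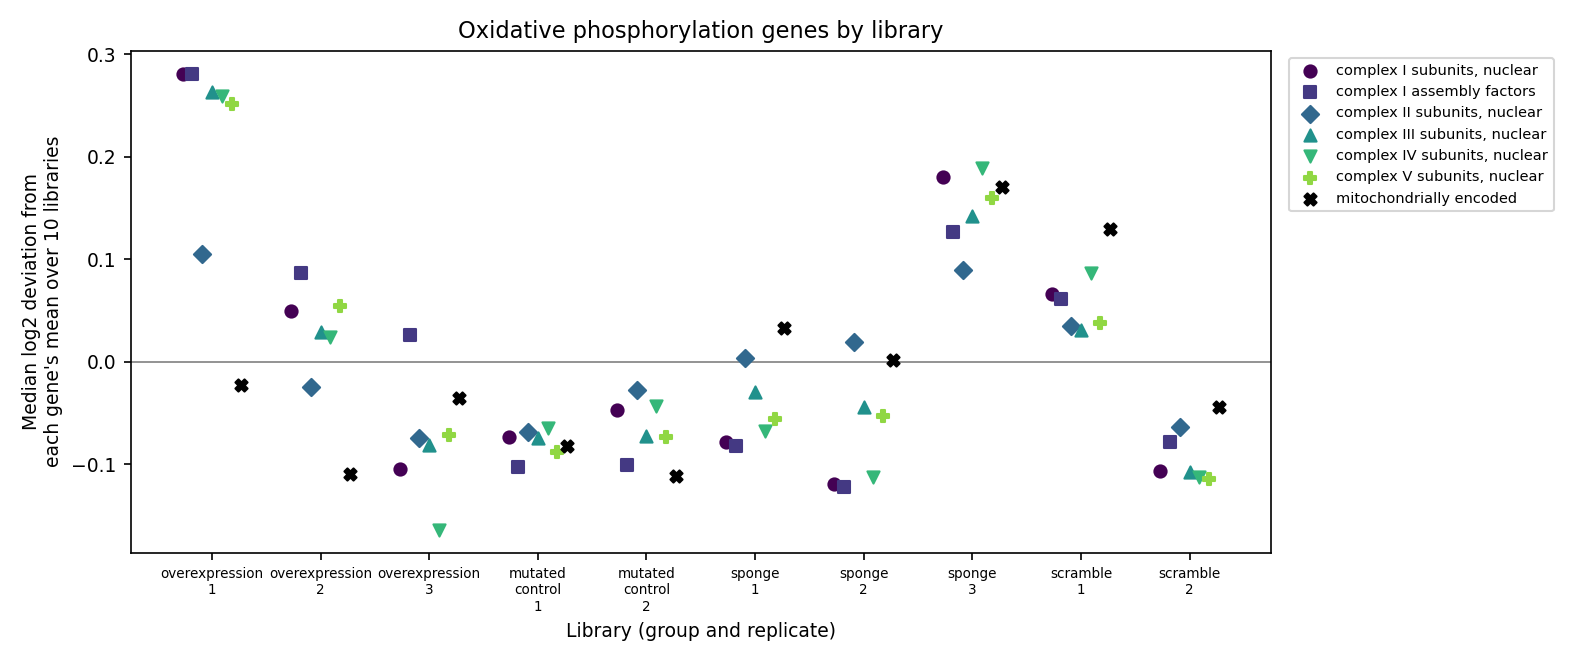
Median log2 deviation of each class of members from the gene's own mean over 10 libraries, one column of points for each library, one symbol for each class. Nuclear classes lie highest in overexpression replicate 1 (all nuclear members 0.26) and sponge replicate 3 (0.17), while the other libraries of those groups lie near or below 0.

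Within overexpression replicate 1 the median deviation was alike in complex I (0.28), complex III (0.26), complex IV (0.26) and complex V (0.25), and it was smaller in complex II (0.11). These 2 libraries also differed in how counts followed gene length. Across the 15767 tested genes, Spearman's rho between deviation and exonic length was -0.267 in overexpression replicate 1 and -0.259 in sponge replicate 3, and it lay between -0.0809 and 0.2 in the other 8. Members are short: their median exonic length was 1547.5 bases, against 3661 over all tested genes. With an offset for length, the nuclear median of overexpression replicate 1 was 0.18 and that of sponge replicate 3 was 0.11, and the SD within groups was 0.0934. The offset was fitted to each library's own deviations, members included, and why these libraries differed was not tested.

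By their median, mitochondrially encoded members were high in only the second of these libraries. The median deviation was -0.023 in overexpression replicate 1 and 0.17 in sponge replicate 3. Single genes went both ways in overexpression replicate 1. There mt-Nd4 (819 CPM) and mt-Nd6 (396 CPM) were at their highest of all 10 libraries, and mt-Co1 (5625 CPM) and mt-Nd5 (870 CPM) at their lowest. The median of the 5 mitochondrially encoded members of complex I was 0.073 in that library. Nuclear members took 0.873% of the normalised counts in overexpression replicate 1 and 0.842% in sponge replicate 3, against 0.697% to 0.765% in the other 8 libraries. Mitochondrially encoded members took 1.19% in overexpression replicate 1, the lowest share, and 1.39% in scramble replicate 1, the highest. Their ratio to the nuclear members was 1.36, 1.58 and 1.79 in the overexpression libraries and 1.76 and 1.74 in the mutated control. It was 1.83, 1.84 and 1.61 in the sponge libraries and 1.82 and 1.74 in the scramble control. The overexpression libraries thus overlapped the mutated control in this ratio, and the sponge libraries overlapped the scramble control.

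**Figure D2:**
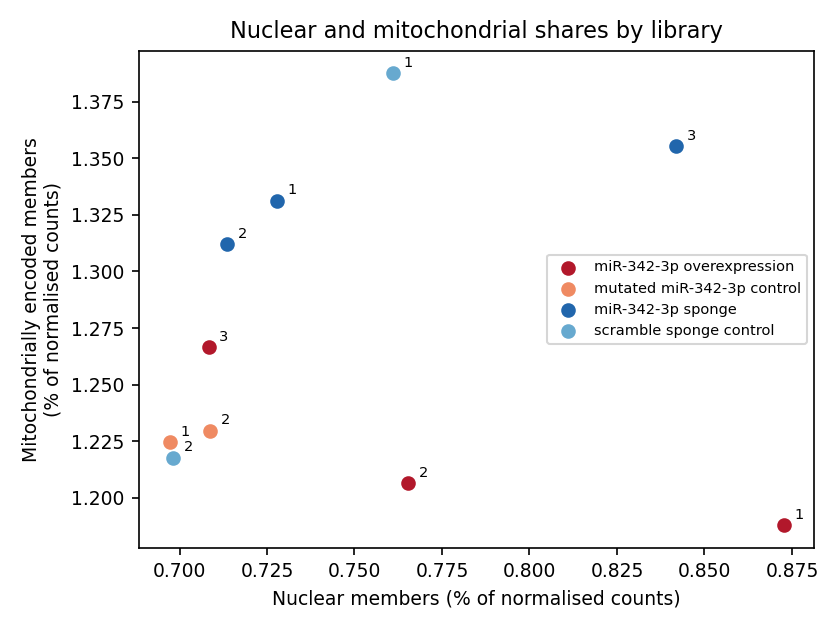
Share of normalised counts taken by the 88 nuclear members (horizontal axis, %) and the 10 mitochondrially encoded members (vertical axis, %), one point for each library, numbered by replicate. Overexpression replicate 1 combines the highest nuclear share (0.873%) with the lowest mitochondrial share (1.19%).

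Overexpression against the mutated control asks what the functional microRNA changes beside a form with an altered sequence. Of 98 members, 1 was called at an adjusted p under 0.05 (edgeR quasi-likelihood test): Atp5b, which was higher with overexpression. Over all 15767 tested genes 85 were called, or 0.539%, and 39 were called higher, or 0.247%. Fold changes were above 0 for 87 of 98 members, with a median log2 fold change of 0.13, where 48.8% of all tested genes were above 0 and their median was -0.0063. Nuclear members had 79 of 88 above 0 and a median of 0.14. Mitochondrially encoded members had 8 of 10 above 0 and a median of 0.067. At an unadjusted p under 0.05 there were 11 members, 10 of them higher, against 18.2% of all tested genes. Groups did not overlap for 30 members that were higher and 1 that was lower. In all tested genes the same held for 18.9% and 19.3%.

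The size of the general shift depended on single libraries. Without overexpression replicate 1 the nuclear median was 0.031, with 62 of 88 above 0, and without overexpression replicate 3 it was 0.23, with 83 of 88 above 0. With the length offset it was 0.11, with 78 of 88 above 0. Mitochondrially encoded members had a median of 0.013 without overexpression replicate 1, with 5 of 10 above 0. Without that library the nuclear medians were 0.024 in complex I (27 of 38 above 0), 0.0039 in complex II (2 of 4), 0.069 in complex III (6 of 8), -0.015 in complex IV (6 of 13) and 0.054 in complex V (13 of 17). The median of complex IV thus turned below 0.

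**Figure D3:**
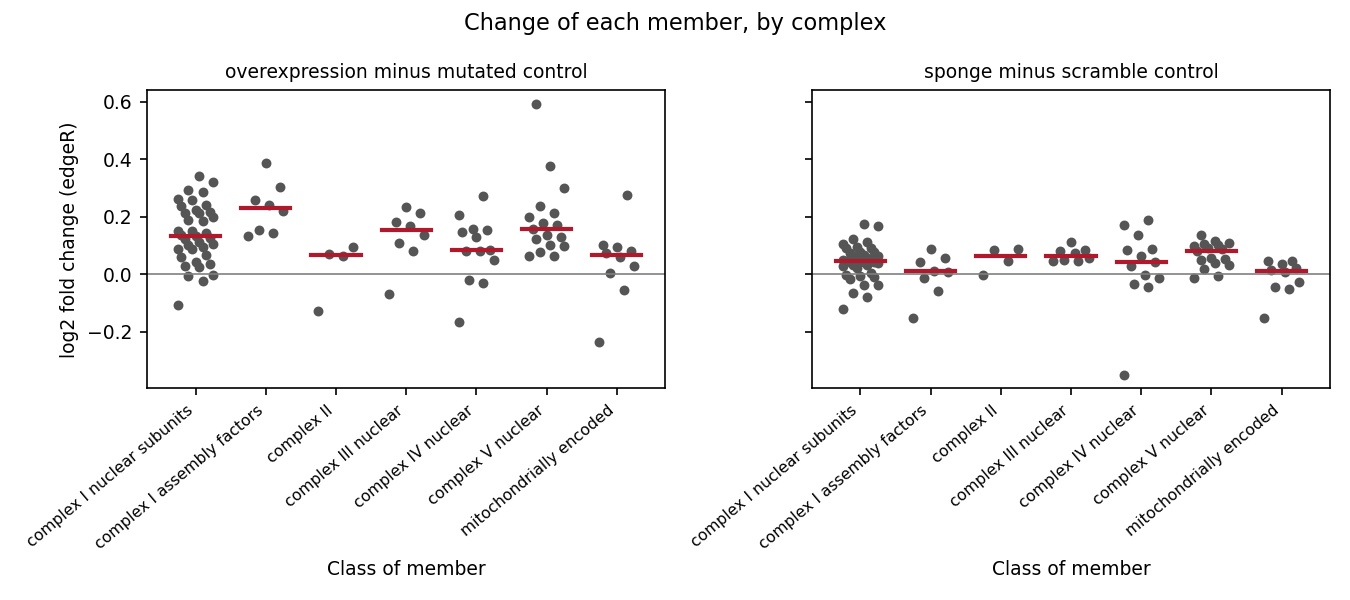
log2 fold change of each member (points) and the median of its class (red line), for overexpression minus mutated control (left) and sponge minus scramble control (right), with classes along the horizontal axis. The left panel holds the highest point, Atp5b at 0.59 in complex V, and assembly factors have the highest class median (0.23); the 7 medians on the right lie between 0.010 and 0.081.

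Complex V held the largest change. All 17 nuclear subunits were above 0 (median 0.16), and the 5 subunits of the F1 head and central stalk, where ATP is formed, had a median of 0.30. Without overexpression replicate 1, 13 of 17 were above 0 (median 0.054), and all 5 of F1 were (median 0.23). Atp5b encodes the catalytic beta subunit and is listed at chromosome 10 from 127919142 to 127926260, plus strand. It was at 845, 804 and 733 CPM with overexpression and at 531 and 523 CPM in the mutated control. It was at 726, 680 and 827 CPM with the sponge and 742 and 695 CPM with the scramble. The mutated control was thus lower than all 8 other libraries. The group means of Atp5b were 794 ± 56.5 CPM (overexpression, SD, n = 3) and 527 ± 5.27 CPM (mutated control, SD, n = 2), a log2 fold change of 0.59 (SE 0.091, 1.51-fold, edgeR adjusted p = 0.0252). Against the scramble control, overexpression gave 0.14 (SE 0.089, edgeR adjusted p = 0.506). The mutated control against the scramble gave -0.45 (SE 0.098, edgeR adjusted p = 0.208; unadjusted p = 0.000819).

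The call on Atp5b held in 15 of 23 alternatives, with a log2 fold change of 0.54 to 0.66 in all 23 and adjusted p from 2.85e-12 to 0.349. Of the 8 losses, 6 came from leaving out 1 library. The call was lost without mutated control replicate 1 (edgeR adjusted p = 0.31) or replicate 2 (0.349) and without overexpression replicate 2 (0.138). It was also lost without scramble replicate 1 (edgeR adjusted p = 0.0623) or 2 (0.0627) and without sponge replicate 1 (0.055), libraries outside the comparison that enter the same fit. Without overexpression replicate 1 and sponge replicate 3 together, 3 members were called higher, Atp5b, Atp5c1 and Atp5e, among 756 genes called in that fit. Without overexpression replicate 2, the fit called 6 genes in all, and with either replicate block it called 0.

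The other F1 subunits showed smaller differences. Atp5c1, the gamma subunit of the central stalk, was at 147, 138 and 132 CPM with overexpression and 112 and 114 CPM in the mutated control. Its log2 fold change was 0.30 (SE 0.076, edgeR adjusted p = 0.109), and with DESeq2 the adjusted p was 0.0228. Atp5e, the epsilon subunit, was at 107, 84.4 and 77.9 CPM against 66.5 and 72.2 CPM, a log2 fold change of 0.37 (SE 0.15, edgeR adjusted p = 0.226). These groups did not overlap for either gene. Atp5d, the delta subunit, had 136, 122 and 112 CPM against 108 and 107 CPM (log2 0.20, edgeR adjusted p = 0.288). Atp5a1, the alpha subunit, forms the F1 ring together with beta in equal number. It had 717, 668 and 620 CPM against 626 and 652 CPM, groups that overlapped (log2 0.065, edgeR adjusted p = 0.664). The medians of the other parts of complex V were 0.12 for the 3 genes of the c-ring, 0.16 for the 4 of the peripheral stalk and 0.16 for the 5 small membrane subunits. Without overexpression replicate 1 they were 0.045, 0.073 and 0.033.

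**Figure D4:**
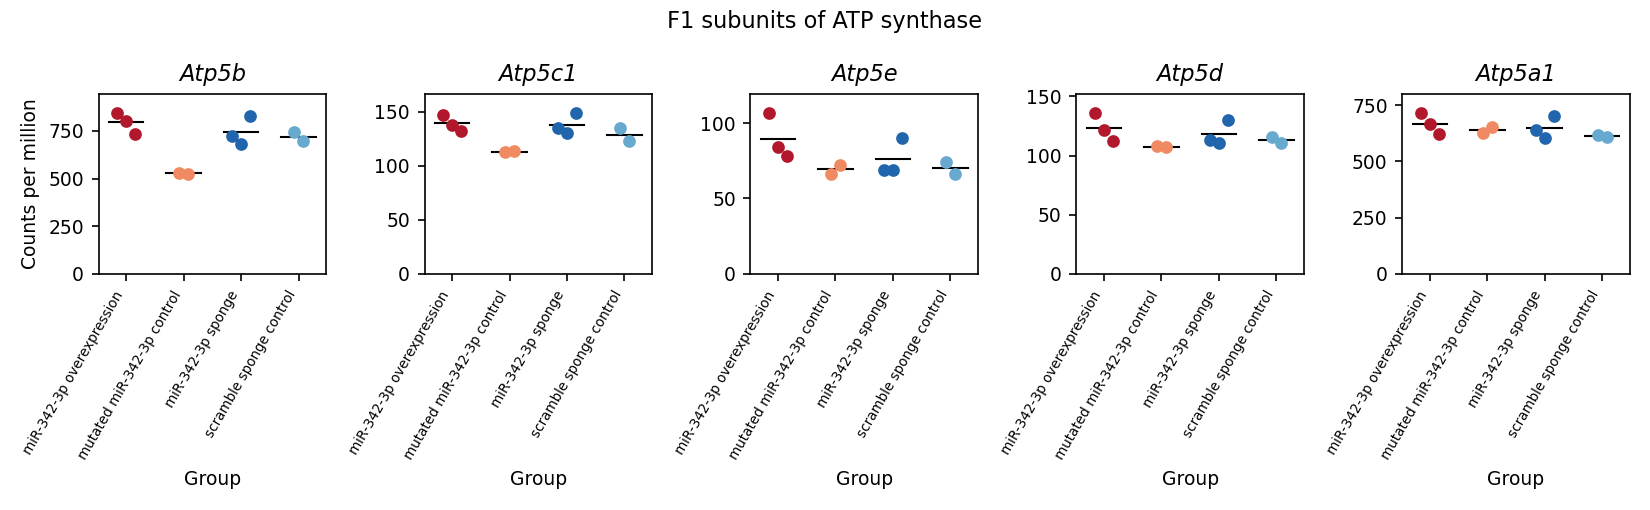
CPM (vertical axis, starting at 0) of the 5 F1 subunits in each library (points) by group, with the group mean as a black line. For Atp5b the 2 mutated control libraries (531 and 523 CPM) lie below all 8 others, which range from 680 to 845 CPM; for Atp5a1 the groups overlap.

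Promoter sequence is shown for Atp5b, the called member, and for Cox6a1, whose window holds several kinds of motif. Windows of 250 bases before to 50 after the start were available from RefSeq (GRCm38.p6) for 74 of 88 nuclear members (79 windows) and for tested genes (13470 windows). Of the members' windows 12.7% held an NRF1 motif (CGCATGCGC), against 3.48% of all tested windows. The shares were 24.1% and 17.3% for an ETS motif (CCGGAAG), 10.1% and 2.87% for YY1 (AAGATGGCG), 2.53% and 0.267% for ERR (TCAAGGTCA), and 41.8% and 37.8% for a CCAAT box (CCAAT). Both strands were searched, and the letters of the NRF1 motif overlap with their own reverse complement. The Atp5b window had no match to the first 4 and 5 CCAAT matches; 2.53% of the members' windows and 0.497% of all tested windows had 5 or more. The lines give the 250 bases before the start, chr10:128083057-128083306 on the plus strand for Atp5b and chr5:115348959-115349208 on the minus strand for Cox6a1, with motif matches in capitals (in Cox6a1: NRF1, CCAAT and ETS, in that order).
Atp5b: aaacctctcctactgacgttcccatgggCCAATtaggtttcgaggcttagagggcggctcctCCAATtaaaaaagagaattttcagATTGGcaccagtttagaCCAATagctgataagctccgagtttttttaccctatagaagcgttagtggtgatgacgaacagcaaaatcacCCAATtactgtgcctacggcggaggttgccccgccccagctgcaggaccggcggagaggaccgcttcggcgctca
Cox6a1: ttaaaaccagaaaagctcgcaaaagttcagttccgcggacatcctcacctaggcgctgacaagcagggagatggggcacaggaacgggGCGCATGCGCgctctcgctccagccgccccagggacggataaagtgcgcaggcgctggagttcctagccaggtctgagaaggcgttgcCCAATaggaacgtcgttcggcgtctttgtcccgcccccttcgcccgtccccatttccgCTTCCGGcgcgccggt

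Complex I had 34 of 38 nuclear subunits above 0 (median 0.13; 27 of 38 and 0.024 without overexpression replicate 1) and no subunit called by edgeR, with 2 subunits at an unadjusted p under 0.05. Ndufb9, a supernumerary subunit, was at 28.7, 23.9 and 22.8 CPM with overexpression and 20.3 and 21.0 CPM in the mutated control. Its log2 fold change was 0.29 (SE 0.11, edgeR adjusted p = 0.216). Ndufc1, another supernumerary subunit, was at 36.7, 30.2 and 26.8 CPM against 25.7 and 24.5 CPM (log2 0.32, SE 0.14, edgeR adjusted p = 0.269). The groups did not overlap for either, and overexpression replicate 1 was the highest of all 10 libraries for both. The 7 nuclear core subunits, which carry the flavin and iron-sulfur centres, had a median of 0.095 with 5 of 7 above 0, and of 0.016 without overexpression replicate 1.

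The 8 assembly factors, which build complex I without staying in it, were all above 0 with a median of 0.23, and 5 of 8 did not overlap, beside the 18.9% of all tested genes that were higher without overlap. Ndufaf6 was at 9.44, 7.87 and 7.86 CPM with overexpression and 6.34 and 6.58 CPM in the mutated control (log2 0.39, SE 0.16, edgeR adjusted p = 0.248). Ndufaf5, which modifies a core subunit, was at 9.64, 7.68 and 7.78 CPM against 7.14 and 6.51 CPM (log2 0.30, SE 0.12, edgeR adjusted p = 0.235). Ndufaf3 was at 18.5, 16.6 and 15.9 CPM against 14.03 and 14.9 CPM (log2 0.24, SE 0.10, edgeR adjusted p = 0.255). Without overexpression replicate 1 the median of the 8 was 0.14 and all 8 stayed above 0. None was called by edgeR. More than 20% of the exonic bases of Ndufaf2 (65.6%), Atp5o, Ndufb6 and Ndufa13 lie in exons of another gene, and strand was not used in counting, so their levels are uncertain.

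Complex II showed the only lower member among the non-overlapping ones. Sdha, the flavoprotein that oxidises succinate in the tricarboxylic acid cycle, was at 320, 307 and 321 CPM with overexpression and 342.5 and 348 CPM in the mutated control. It was lower by a log2 fold change of -0.13 (SE 0.055, edgeR adjusted p = 0.262). With the sponge it was at 345, 361 and 349 CPM and with the scramble at 337 and 325 CPM (log2 0.089, SE 0.056, edgeR adjusted p = 1). The sponge libraries were thus above the scramble libraries. Sdhc had 152, 131 and 129 CPM with overexpression against 126 and 132 CPM (log2 0.094, edgeR adjusted p = 0.52), and Sdhd 120.2, 114.7 and 109.5 CPM against 109.6 and 109.96 CPM (log2 0.065, edgeR adjusted p = 0.611).

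In complex III, 7 of 8 nuclear members were above 0 (median 0.15), and 6 of 8 (median 0.069) without overexpression replicate 1. Uqcrc1, a core protein, was at 148, 126 and 124 CPM with overexpression and 115.3 and 113 CPM in the mutated control, groups that did not overlap (log2 0.21, SE 0.085, edgeR adjusted p = 0.231). Uqcr10 was at 86.1, 70.8 and 65.2 CPM against 62.2 and 64.1 CPM (log2 0.23, SE 0.12, edgeR adjusted p = 0.327). In complex IV, 10 of 13 nuclear members were above 0 (median 0.086), which became 6 of 13 (median -0.015) without overexpression replicate 1. In the fit of all libraries none had an unadjusted p under 0.05 and none had groups that did not overlap. Cox6a1 had 203, 168 and 148 CPM against 153 and 148 CPM (log2 0.21, edgeR adjusted p = 0.448). Cox7b, a small membrane subunit, had 78.9, 67.8 and 61.0 CPM against 61.7 and 62.6 CPM (log2 0.16, edgeR adjusted p = 0.443).

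The sponge against its scramble control asks about the opposite perturbation, since a sponge withholds the microRNA from its targets. No member was called by edgeR or by DESeq2, and none of the 98 had an unadjusted p under 0.05. Of all tested genes edgeR called 0%, and 2.33% (368 genes) had an unadjusted p under 0.05. The members' median was 0.047, with 74 of 98 above 0, against 49.3% of all tested genes. Groups did not overlap for 6 members that were higher and 1 that was lower, beside 6.9% and 8.3% of all tested genes. The nuclear median of 0.049 (68 of 88 above 0) became -0.033 (23 of 88) without sponge replicate 3 and -0.030 (37 of 88) without scramble replicate 2, and it became 0.11 (82 of 88) without scramble replicate 1.

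Medians of the nuclear subunits of the 5 complexes lay between 0.041 (complex IV) and 0.081 (complex V) for the sponge, and that of the assembly factors was 0.010. Without sponge replicate 3 they lay between -0.046 (complex I) and 0.015 (complex II), and that of the assembly factors was -0.072. The lowest single value was Cox6a2, at 9.18, 6.64 and 11.9 CPM with the sponge and 12.04 and 11.5 CPM with the scramble. Its groups overlapped (log2 -0.35, SE 0.20, edgeR adjusted p = 1), and without sponge replicate 3 and overexpression replicate 1 the value was -0.57. The highest was Cox6a1, at 154, 149 and 204 CPM against 152 and 144 CPM (log2 0.19, SE 0.14), which was 0.031 without sponge replicate 3. Uqcrc2, a core protein of complex III, had 79.2, 77.2 and 84.9 CPM against 76.9 and 74.8 CPM (log2 0.085, SE 0.062). Uqcrfs1, the Rieske iron-sulfur protein, had 72.8, 72.9 and 75.7 CPM against 72.7 and 67.6 CPM (log2 0.073, SE 0.062). Ndufs7, a core subunit of complex I, had 70.6, 70.8 and 90.9 CPM against 71.2 and 66.7 CPM (log2 0.17, SE 0.13). Ndufaf4 had 12.9, 12.3 and 14.5 CPM against 15.2 and 14.2 CPM (log2 -0.15, SE 0.097). Atp5g2 had 85.1, 85.1 and 91.3 CPM against 84.8 and 76.3 CPM (log2 0.11, SE 0.081).

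Whether the effects of the vectors differed was tested directly, as the difference of both fold changes. No member was called by edgeR, and 3 had an unadjusted p under 0.05, beside 0% and 8.06% of all tested genes; DESeq2 called 1, Atp5b. The test over all 4 groups called 0 members with edgeR, beside 0.419% of all tested genes, and 6 had an unadjusted p under 0.05, beside 16.1%. DESeq2 called 3 there: Atp5b, Atp5c1 and mt-Atp6. Atp5b had the smallest p of the members (edgeR adjusted p = 0.0576).

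The controls were also compared, and this comparison shares its mutated libraries with the first one and its scramble libraries with the second. Mutated control against scramble, edgeR called 0 members and 0.0254% of all tested genes (0.00634% higher and 0.019% lower). An unadjusted p under 0.05 was found for 4 members, beside 6.47% of all tested genes, all 4 lower in the mutated control: Atp5b, Atp5c1, mt-Co2 and mt-Atp6. DESeq2 called 1 of them, Atp5b. Fold changes were above 0 for 28 of 98 members, beside 50.5% of all tested genes, and groups did not overlap for 11 members that were higher and 22 that were lower, beside 24.1% and 24.2%. All 10 mitochondrially encoded members were below 0 (median -0.15), and without scramble replicate 1 their median was -0.050. The nuclear median was -0.030 and turned to 0.047 without scramble replicate 1. Overexpression against scramble gave 0 members called by edgeR, beside 0.0444% of all tested genes (0.0317% higher, 0.0127% lower). Of all tested genes 47.7% were above 0 there, and 79 of 98 members were. The nuclear median was 0.11, and it was 0.021 without overexpression replicate 1, 0.035 without scramble replicate 2, 0.19 without scramble replicate 1 and 0.19 without overexpression replicate 3. The mitochondrial median was -0.11, and -0.0091 without scramble replicate 1. An unadjusted p under 0.05 was found for 8 members, beside 13.4% of all tested genes. DESeq2 called 0 members, where it called 234 genes in all. Ndufa11, a membrane subunit of complex I, had 30.9, 23.7 and 24.1 CPM with overexpression and 20.8 and 20.01 CPM with the scramble (log2 0.37, SE 0.13, edgeR adjusted p = 0.281).

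The mitochondrially encoded genes fell into separate ranges of level. mt-Co1, the catalytic subunit of complex IV, had 5625 to 6830 CPM, mt-Cytb of complex III had 1722 to 2140 CPM, and mt-Nd1 of complex I had 1233 to 1486 CPM. In the same libraries mt-Co2 had 3.24 to 5.83 CPM, mt-Atp6 2.26 to 5.56 CPM and mt-Co3 1.89 to 3.66 CPM. mt-Atp8, mt-Nd3 and mt-Nd4l stayed under 1 CPM. All of these are core subunits, transcribed from the same circular genome. Per length, the means were 4081 RPKM for mt-Co1, 1639 for mt-Cytb, 6.19 for mt-Co2, 5.63 for mt-Atp6 and 3.77 for mt-Co3.

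**Figure D5:**
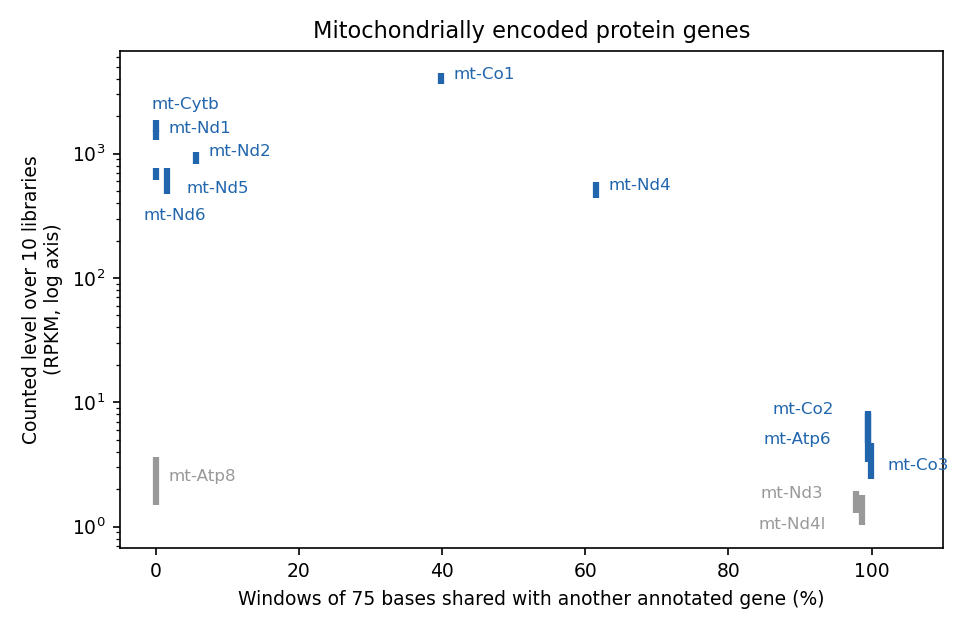
Lowest to highest RPKM over 10 libraries (vertical bars, log axis) of the 13 mitochondrially encoded protein genes, against the share of their 75-base windows found in another annotated gene (horizontal axis, %). Genes with over 90% shared windows lie below 10 RPKM, and mt-Atp8 lies there too with no window shared with an annotated gene. Sequence outside annotated transcripts was not searched. Grey marks genes left out for their low level.

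Sequence shared with annotated nuclear copies is shown here because the counting command in the header carries no option to count reads that map to several places. In GENCODE vM21 transcripts, the share of 75-base windows found in another gene was 99.5% for mt-Co2 (with Gm28661), 99.5% for mt-Atp6 (Gm10925), 99.9% for mt-Co3 (Gm28437), 97.8% for mt-Nd3 (Gm28438) and 98.7% for mt-Nd4l (Gm10222). It was 61.5% for mt-Nd4, 39.8% for mt-Co1, 5.71% for mt-Nd2 and 1.7% for mt-Nd5. It was 0 for mt-Cytb, mt-Nd1, mt-Nd6 and mt-Atp8. The named copies lie on chromosome 1. Among 88 nuclear members, 62 shared no window and the highest share was 35.2% (Ndufb4 with Ndufb4c). From the first base on, mt-Co2 and Gm28661 were identical over 681 bases, mt-Atp6 and Gm10925 over 678, and mt-Co3 and Gm28437 over 783. mt-Nd3 and Gm28438 differed at 1 of 345 bases, T3C counted from the first base of mt-Nd3. Bases 1 to 60 follow, with that difference in capitals; the mt-Co2 line is the same in Gm28661.
mt-Co2: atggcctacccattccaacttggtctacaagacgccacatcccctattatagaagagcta
mt-Nd3: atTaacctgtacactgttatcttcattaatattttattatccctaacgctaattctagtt
Gm28438: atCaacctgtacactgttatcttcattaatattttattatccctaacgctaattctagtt
The levels counted for these copies were as low: 4.28 to 8.18 CPM for Gm28661, 3.13 to 5.89 CPM for Gm10925 and 2.03 to 3.45 CPM for Gm28437. How many reads were set aside as mapping to both places was not tested, and the counts of these 5 genes are therefore uncertain. mt-Atp8 had no window shared with an annotated transcript and was low as well, and 21.1% of its length overlaps mt-Atp6. Copies outside annotated transcripts were not searched, so they would not be seen here.

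Among the mitochondrially encoded members, the lowest p in overexpression against mutated control was that of mt-Nd4, a membrane subunit of complex I. It was at 819, 706 and 691 CPM with overexpression and 620 and 601 CPM in the mutated control (log2 0.28, SE 0.099, edgeR adjusted p = 0.198). It had 693, 676 and 782 CPM with the sponge and 756 and 642 CPM with the scramble. mt-Nd5 had 870, 1093 and 1220 CPM with overexpression and 1218 and 1280 CPM in the mutated control (log2 -0.24, SE 0.12, edgeR adjusted p = 0.315). The lowest value of mt-Nd5 was that of overexpression replicate 1, where nuclear members were highest. mt-Nd6, the only one of these genes on the minus strand, had 317 to 396 CPM, and mt-Nd2 had 854 to 1063 CPM. Strand was not used in counting, so the level of mt-Nd6 may include reads of the opposite strand and is uncertain. mt-Atp6 had 3.46, 2.26 and 3.46 CPM with overexpression and 2.98 and 3.00 CPM in the mutated control. It had 4.73, 3.58 and 5.08 CPM with the sponge and 4.22 and 5.56 CPM with the scramble. All 5 sponge and scramble libraries were above the other 5 (mutated control minus scramble log2 -0.72, SE 0.23, edgeR adjusted p = 0.527; overexpression minus scramble -0.70, SE 0.21, edgeR adjusted p = 0.236). mt-Co2 had 3.98, 3.45, 3.97, 3.82 and 3.24 CPM in the overexpression and mutated control libraries, and 4.31, 3.98, 5.83, 4.99 and 4.75 CPM in the sponge and scramble libraries. Both genes are among those with shared sequence.

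The microRNA is shown with its seed (bases 2 to 8) in capitals, as given by RefSeq at chr12:108658680-108658702 (GRCm38.p6, plus strand).
mmu-miR-342-3p: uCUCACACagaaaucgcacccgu
Matches to its seed were sought in 3′ UTRs of GENCODE vM21 (GRCm38), taking the longest for every gene: GTGTGAGA (8mer), GTGTGAG (7mer-m8) and TGTGAGA (7mer-A1). A 3′ UTR was found for 87 of 88 nuclear members, and 13 of these (14.9%) held a match, against 25.9% of 12129 tested genes with a 3′ UTR. Members' UTRs were short, with a median of 289 bases against 1314. Atp5b, Atp5c1, Atp5e and Sdha held none. An 8mer was present in 4 members, all of complex I: Ndufv1, a core subunit that binds NADH, Ndufab1, the acyl carrier protein, Ndufb4 and Ndufv3. Their sites are shown with up to 8 bases on each side and the match in capitals.
Ndufv1: aaatctgtGTGTGAGAccgtgcta
Ndufab1: tgttggcgGTGTGAGAttttctag
Ndufb4: gaacctgtGTGTGAGAataatggt
Ndufv3: agcaatgcGTGTGAGAaatggagt
Their log2 fold changes with overexpression against the mutated control were 0.036, 0.068, 0.15 and 0.21, in that order, and with the sponge against the scramble 0.043, -0.038, -0.0033 and 0.093. None was called by edgeR. Over all 13 members with a match the medians were 0.15 and 0.034, and over the 74 without one 0.14 and 0.054. A match is a description of sequence and does not show binding.

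Other genes of the pathway were taken from 4 lists, and edgeR called none of them in overexpression against mutated control or in sponge against scramble. Of all tested genes, 18.2% had an unadjusted p under 0.05 with overexpression and 48.8% were above 0, and the counts of the lists are to be read beside these. All values of the lists come from the fit that includes overexpression replicate 1. Among 43 tested assembly factors outside the Nduf prefix, 33 were above 0 with overexpression (median 0.079), 4 higher and 2 lower at an unadjusted p under 0.05. Cox17, a copper chaperone for complex IV, had a log2 fold change of -0.52 (SE 0.13, edgeR adjusted p = 0.106), and Bcs1l, which inserts the Rieske protein, 0.30 (SE 0.092, edgeR adjusted p = 0.154). For Cox17 the mutated control against the scramble gave 0.49 (SE 0.145, edgeR adjusted p = 0.453). Among 20 genes of electron carriers and coenzyme Q synthesis the median was 0.14, with 2 higher and 1 lower at that level. Coq6, a hydroxylase of coenzyme Q synthesis, had 0.23 (SE 0.074, edgeR adjusted p = 0.168), and Gpd2, the mitochondrial glycerol phosphate dehydrogenase, -0.27 (SE 0.095, edgeR adjusted p = 0.193). Among 31 genes of mitochondrial gene expression and biogenesis the median was 0.077, with 7 higher and 0 lower. Polrmt, the mitochondrial RNA polymerase, had 0.25 (SE 0.067, edgeR adjusted p = 0.127), and Esrra, a nuclear receptor of respiratory genes, 0.19 (SE 0.073, edgeR adjusted p = 0.214). Among 19 genes of the tricarboxylic acid cycle the median was 0.047, with 3 higher and 0 lower. Suclg2, a subunit of succinyl-CoA ligase, had 0.23 (SE 0.060, edgeR adjusted p = 0.115), and Mdh2, the mitochondrial malate dehydrogenase, 0.30 (SE 0.12, edgeR adjusted p = 0.23). In sponge against scramble the 4 medians were 0.044, 0.027, -0.027 and 0.051, and 1 gene had an unadjusted p under 0.05, Pprc1, a coactivator of mitochondrial biogenesis (log2 -0.19, SE 0.076, edgeR adjusted p = 1). 

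Markers of other cell types were measured in the same fit. With overexpression against mutated control, edgeR called 1 marker lower, Kdr, a receptor known from endothelium, beside 0.292% of all tested genes. Kdr had 17.7 to 27.1 CPM over all libraries (log2 -0.47, SE 0.080, edgeR adjusted p = 0.0352). It was higher in the mutated control than in the scramble (log2 0.39, SE 0.088, edgeR adjusted p = 0.233). Summed endothelial markers, 5 of 10 at 1 CPM or more, were at 339 to 360 CPM with overexpression and 357 to 373 CPM in the mutated control. They were at 386 to 407 CPM with the sponge and 388 to 409 CPM with the scramble. Most of that sum was Fcgr2b and Vwf, and Clec4g and Ptprb were at 0 in all libraries. Of the 10 hepatocyte markers, 1 (Trf, at 335 to 468 CPM) reached 1 CPM. The part of these genes in the results was not tested.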

How the data were processed

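The authors deposited a single table of raw counts per gene, all whole numbers. Its header records featureCounts 2.0.1 run on GENCODE vM30 by gene name, with strand setting 0 and a minimum overlap of 10 bases, over 12 libraries, of which 10 are analysed here. FastQC 0.11.6, Trimmomatic, STAR 2.7.6a and GRCm38 are listed in the submitters' processing notes. vM30 belongs to a later build, so gene positions are given as the file lists them, without a build.

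Data lines have 15 fields under 16 names, since sponge replicate 3 and scramble replicate 1 share 1 field. Each joined number was split where a negative binomial fit to the 8 intact libraries was likeliest. A split had to be at least 100 times likelier than the next; 51 of 55866 genes were left out. On 12 pairs of intact libraries joined on purpose, at least 99.8998% of genes were recovered. That share is over all genes of the table, expressed or not. Up to 7 genes a pair with a mean count of at least 10 stayed wrongly split after the filter. The last field was taken as scramble replicate 2 by the header's order.

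The test was that of edgeR 4.0.16 (robust quasi-likelihood, TMM factors, filter by group) in R 4.3.3: 10 libraries in 1 fit, 15767 genes, Benjamini-Hochberg adjustment over all of them, threshold 0.05. Groups came from the sample titles. CPM and RPKM were computed here, and SE is that of the log2 fold change. Alternatives were DESeq2 1.42.0, limma-voom (limma 3.58.1), other scalings and filters, a length offset, replicate blocks and leaving out libraries. The functions were tested on simulated data.

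Named genes were all called members, per complex the 2 with the smallest p in each vector comparison and the highest and lowest RPKM, all mitochondrially encoded genes, isoform pairs, and per list the 2 smallest p. Genes with seed sites, promoter examples and further F1 and assembly genes were chosen after their values were seen. The members, lists, motifs and rules were chosen with earlier results of these data known.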

Additional observations from a re-analysis of the deposited data

How the results depend on the processing

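The count of called members depended on the test. All genes called in the same fit are given in brackets. In overexpression against mutated control it was 1 (85), and it became 2 (500) with DESeq2, 2 (303) with the length offset, 9 (1390) with no filter on low counts and 3 (756) without overexpression replicate 1 and sponge replicate 3 together, a setting added after seeing the data. It was 0 (0) with either replicate block. There the edgeR adjusted p of Atp5b was 0.191 with numbers from the titles and 0.215 with those from the library names. It was 0 (6) without overexpression replicate 2 and 0 (31) without sponge replicate 1. Leaving out any other single overexpression or sponge library gave 1 called member, among 58 to 279 genes called. Over all 4 groups the count of called members was 0 (66). It became 3 (849) with DESeq2, 1 (294) with the length offset, 10 (1707) with no filter and 6 (1407) in the added setting. Leaving out 1 overexpression or sponge library gave 0 to 1, among 12 to 273 genes called. The difference of the effects had 0 (0), and 1 (48) with DESeq2, 1 (331) with no filter and 1 (271) in the added setting. Mutated control against scramble had 0 (4), and 1 (90) with DESeq2, 2 (574) with only the groups compared, 2 (149) with no filter and 1 (271) in the added setting. Overexpression against scramble had 0 (7), and 4 (747) with no filter and 2 (376) in the added setting. Sponge against scramble had 0 under every alternative. The cause of these differences was not tested.

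Medians of the nuclear members stayed within 1 SD of the spread between replicates in all alternatives. The SD of their median within groups was 0.137, as large as their median of 0.137 in overexpression against mutated control. Staying within it therefore does not show that a median was stable. In sponge against scramble the nuclear median changed sign without sponge replicate 3. Medians of the mitochondrially encoded members stayed within 1 SD in overexpression against mutated control. In mutated control against scramble their median was -0.15, from -0.21 to -0.050 leaving out 1 library and -0.052 without both joined libraries. In overexpression against scramble it was -0.11, from -0.20 to -0.0091 and -0.002875 in turn. In sponge against scramble it was 0.011, from -0.070 to 0.093 leaving out 1 library. Of same-numbered libraries, 3 of 13 pairs by title and 1 of 13 by library name correlated above 0.1. By title, overexpression and scramble correlated at 0.412 and 0.466, and overexpression and sponge at -0.69, -0.11 and -0.842. In a group of 2 libraries the deviations from the group mean mirror each other. These correlations therefore cannot decide whether equal numbers mark pairs, and the replicate block rests on a number only. The limit of 1 CPM gave 98 members, 0.5 CPM 101 and 5 CPM 95.

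With 2 to 3 libraries a group, differences of the size seen for most members are within the spread between libraries. The levels of mt-Co2, mt-Co3 and mt-Atp6 rest on 70 to 322 counts a library.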
